A study of Arabidopsis thaliana with 12 samples.

Results

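The genes described here make and break down tetrapyrroles, the ring-shaped pigments and cofactors that include chlorophyll, heme and the bilins. They were chosen as 43 loci by name, from the first committed enzyme of the plastid pathway to the chlorophyll, heme and bilin branches and to chlorophyll breakdown, out of 33201 rows in each of the authors' 4 deposited comparison tables. Of the 43 loci, 41 had a row of their own, and NOL and PAO lay in rows that join them with a neighbouring gene model. RNA was sequenced from 5-day-old Arabidopsis thaliana seedlings in 12 samples, 3 in each of 4 groups. The genotypes were Col-0, the wild type, and nup1-1, a mutant; seedlings of each grew untreated on MS medium or on the same medium with abscisic acid (ABA), the hormone of seed dormancy and water stress. NUP1 encodes a protein of the nuclear pore, and nup1-1 is the only mutant allele in the set. The sources used here do not give the ABA dose, the light regime or say whether replicate samples were sown separately, so the spread behind the p-values may be technical.

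Tetrapyrrole synthesis in plants starts in the plastid, where glutamate bound to tRNA is reduced and rearranged to 5-aminolevulinic acid (ALA). ALA is built up through a common trunk to protoporphyrin IX. There magnesium chelatase directs the flow to chlorophyll and ferrochelatase directs it to heme, from which the phytochrome chromophore is made. Free intermediates are phototoxic, so the entry step and the branch point are known to be tightly controlled in greening seedlings. During breakdown, chlorophyll b is reduced, magnesium is removed, and the ring is opened and exported.

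The deposited tables give 1 value per group and gene, read here as FPKM (fragments per kilobase, scaled to the mapped fragments), a level per gene length. That unit is inferred from how the smallest values fall with gene length. Each error after a plus-minus sign is a standard error on the log2 scale, rebuilt from the deposited test statistic. A gene was called higher or lower at a q-value under 0.05 in the authors' deposited table. The 4 tables were normalized separately. From the ABA table to the genotype table, values of Col-0 on ABA shifted by 0.20 (log2) and those of untreated nup1-1 by -0.20. Levels should therefore be compared only within a table. Where an ABA response is given for both genotypes, the levels of Col-0 and nup1-1 come from separate tables. Without ABA, NUP1 itself stood at 12.8 FPKM in the wild type and at 9.23 FPKM in the mutant, a log2 difference of -0.47 ± 0.23 with q = 0.243 in the authors' deposited table. On ABA it stood at 13.8 and 7.47 FPKM, a log2 difference of -0.88 ± 0.15 with q = 0.000272 in that deposited table. NUP1 transcript was thus still present in the mutant.

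Markers of the seedling's cell types were present in all 4 groups, and none of them was at 0. In the ABA tables the summed level of 6 mesophyll markers was 25009 FPKM in untreated Col-0 and 11383 FPKM on ABA. In nup1-1 it was 13394 FPKM untreated and 2820.2 FPKM on ABA. The summed level of 8 seed-stage markers was 23.5 and 4747 FPKM in Col-0 and 9.51 and 8419 FPKM in nup1-1, in the same order. The mesophyll sum was therefore lower, and the seed sum higher, on ABA in both genotypes. Summed over 6 root markers the level went from 79.2 to 87.1 FPKM in Col-0 and from 95 to 129 FPKM in nup1-1. Over 4 stomatal markers it went from 55.5 to 39.8 and from 47.6 to 33.3 FPKM. Single markers did not all follow their sum in nup1-1, where CASP1 of the root list fell from 54.4 to 33.9 FPKM and TMM of the stomatal list rose from 12 to 19.6 FPKM; these 2 were chosen after their values were seen. These changes move with the results below and their part in them was not tested. In whole seedlings, fewer cells of a type and less RNA per cell cannot be told apart.

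The sequences upstream of 6 genes are shown because the results turn on them. HEMA1, CAO and FC2 differed in their ABA response between the genotypes, CHLH carried the deepest fall of the synthesis genes in nup1-1 on ABA, and PORA and SGR2 rose the most. Each is the 250 bases before the RefSeq gene start on TAIR10.1, printed 5′ to 3′ on the strand of the gene. Capitals mark a G-box (CACGTG), an ABA-response element (ABRE, ACGTGNC) or the letters AAAATCT on either strand. AAAATCT was searched here for the clock factor CCA1 and is called the CCA1 site below. An element CCAATC, found in promoters of greening genes, was searched as well and is in none of the 6.
HEMA1, chr1:21626403-21626652, minus strand: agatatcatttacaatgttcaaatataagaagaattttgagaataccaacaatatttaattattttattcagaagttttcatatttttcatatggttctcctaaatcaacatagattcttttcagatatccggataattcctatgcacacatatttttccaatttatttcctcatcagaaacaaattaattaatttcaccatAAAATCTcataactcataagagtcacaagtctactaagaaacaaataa
CAO, chr1:16851272-16851521, minus strand: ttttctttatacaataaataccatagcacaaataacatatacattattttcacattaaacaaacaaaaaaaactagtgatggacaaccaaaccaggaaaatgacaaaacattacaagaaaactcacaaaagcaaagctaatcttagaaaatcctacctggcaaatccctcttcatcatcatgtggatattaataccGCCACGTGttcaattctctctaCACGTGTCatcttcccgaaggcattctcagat
FC2, chr2:12954149-12954398, minus strand: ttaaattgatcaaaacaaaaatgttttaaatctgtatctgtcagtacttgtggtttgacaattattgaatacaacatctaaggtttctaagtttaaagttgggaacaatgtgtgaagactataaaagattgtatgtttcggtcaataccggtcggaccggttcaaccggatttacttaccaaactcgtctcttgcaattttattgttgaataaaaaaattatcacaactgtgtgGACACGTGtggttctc
CHLH, chr5:4392430-4392679, minus strand: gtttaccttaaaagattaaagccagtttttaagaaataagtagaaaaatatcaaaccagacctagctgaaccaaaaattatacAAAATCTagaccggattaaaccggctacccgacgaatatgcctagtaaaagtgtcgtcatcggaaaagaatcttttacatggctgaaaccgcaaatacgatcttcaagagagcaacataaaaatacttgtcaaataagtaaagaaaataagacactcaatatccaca
PORA, chr5:21992815-21993064, minus strand: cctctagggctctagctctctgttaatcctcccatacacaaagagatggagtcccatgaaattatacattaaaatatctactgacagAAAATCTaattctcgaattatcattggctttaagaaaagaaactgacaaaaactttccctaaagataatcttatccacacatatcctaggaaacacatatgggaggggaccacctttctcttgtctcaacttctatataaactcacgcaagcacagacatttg
SGR2, chr4:7155900-7156149, plus strand: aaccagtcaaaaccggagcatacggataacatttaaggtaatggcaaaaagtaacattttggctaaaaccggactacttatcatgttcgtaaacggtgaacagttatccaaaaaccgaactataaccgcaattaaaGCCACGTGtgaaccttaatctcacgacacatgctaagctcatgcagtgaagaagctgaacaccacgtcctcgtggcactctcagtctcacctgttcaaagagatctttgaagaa

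CAO held G-boxes 52 to 47 and 32 to 27 bases before its start, each overlapping an ABRE. FC2 held a single G-box 14 to 9 bases before its start, and SGR2 held its G-box 112 to 107 bases before the start, again with an overlapping ABRE. HEMA1, CHLH and PORA held only the CCA1 site, 48 to 42, 167 to 161 and 163 to 157 bases before the start. These distances hold for the RefSeq start. The deposited gene models of HEMA1 and CHLH start at 21626200 and 4392227, while their windows begin at 21626403 and 4392430. The model of SGR2 starts at 7156252 and its window ends at 7156149. Models of CAO, FC2 and PORA start at 16851224, 12954114 and 21992812, and their windows begin at 16851272, 12954149 and 21992815. The bases between model and window were not searched. Over the 43 loci, 8 upstream windows held a G-box (18.6%), against 6.49% of the windows of 27443 protein-coding genes. An ABRE was in 9 (20.9%), against 8.57%, and the CCA1 site was in 14 (32.6%), against 16.5%. CCAATC was in 3 (6.98%), against 10.2%. Because the G-box and the ABRE share letters, they overlapped at 9 places. A match describes letters only.

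In wild-type seedlings 7 members passed the threshold on ABA, some with large changes. Of 38 members tested, 3 were higher (PORA, SGR1 and SGR2) and 4 were lower (HEMA1, CHLH, CHL27 and NYC1) at q under 0.05 in the authors' deposited table. Over all 20329 genes tested, 7.83% were higher and 7.79% were lower, so the members' shares of 7.89% and 10.5% lay near the background. The median log2 fold change of the tested members was -0.21, against -0.02 over all genes tested. In nup1-1 more members passed the threshold. There 5 of 38 were higher (PORA, SGR1, SGR2, HY2 and UPM1) and 19 were lower, in the authors' deposited table. Over all genes tested there, 21.2% were higher and 25.3% lower, and the members' median was -0.39, against 0.00 over all. The lower calls made up 50% of the tested members. The members' standard errors were 0.15 to 0.35 in nup1-1 and 0.21 to 0.62 in Col-0, so a change of a given size passed more readily in nup1-1. The members called for ABA in both genotypes were 6, each in the same direction: PORA, SGR1, SGR2, CHLH, CHL27 and NYC1.

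**Figure D1:**
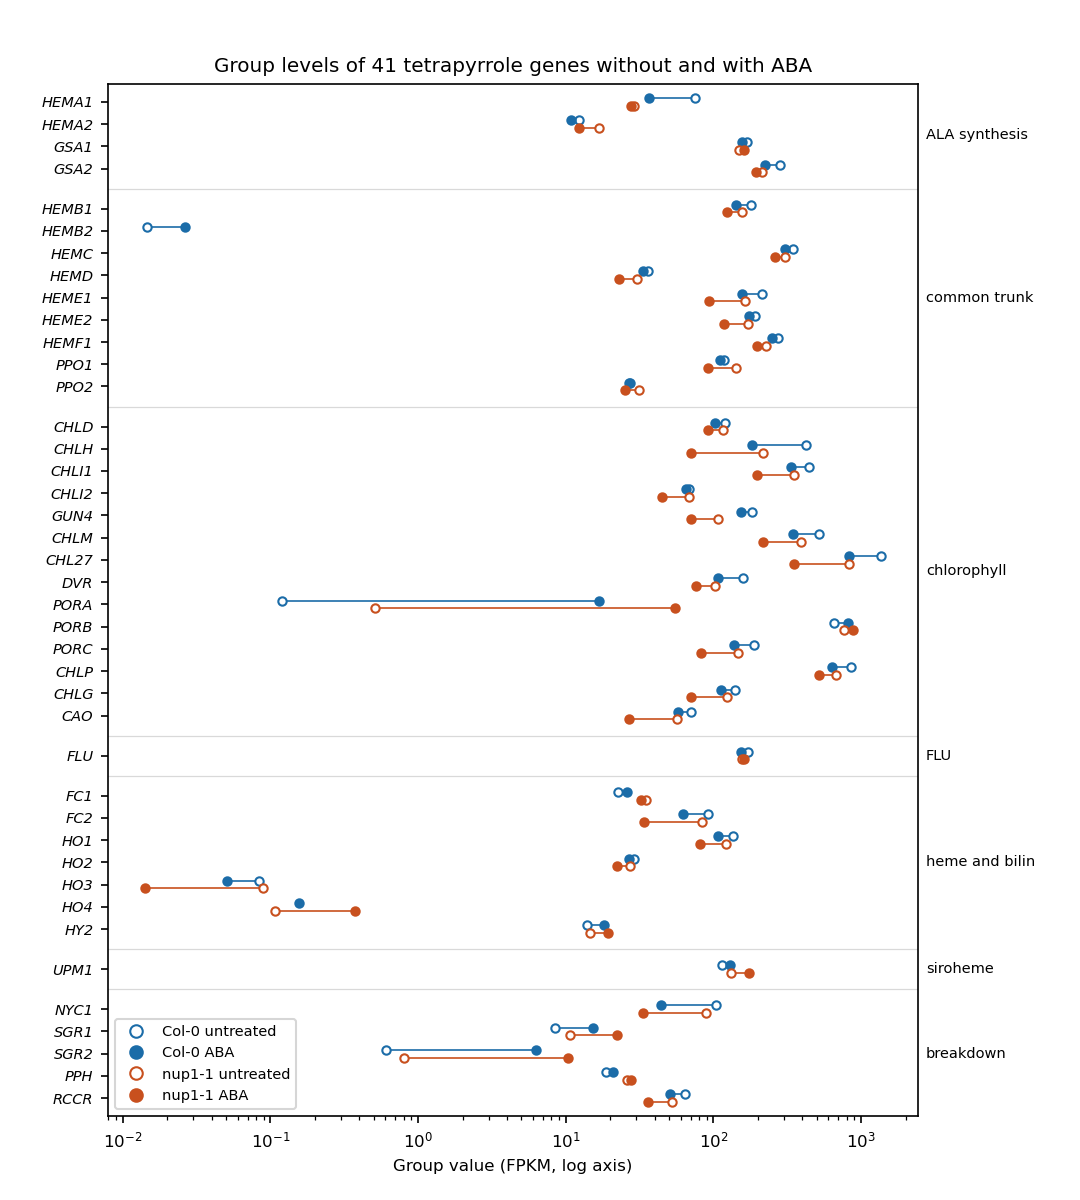
Group values in FPKM on a log axis for the 41 genes with a row of their own, read from the 2 ABA tables; open circles are untreated and filled circles are ABA, blue is Col-0 and orange is nup1-1, and a value of 0 is not drawn. PORA went from 0.12 to 16.7 FPKM in Col-0 and from 0.51 to 55 FPKM in nup1-1, whereas most synthesis genes moved little or to the left, and levels should be compared only within one genotype because the tables were normalized separately.

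The entry step is glutamyl-tRNA reductase, which sets the supply of ALA, and HEMA1 is its main form in green tissue. HEMA1 (AT1G58290, chromosome 1, 21623726 to 21626200 on TAIR10) stood at 75.4 FPKM in untreated Col-0 and 36.8 FPKM on ABA. It fell by 1.03 ± 0.24 on the log2 scale, with q = 0.000716 in the authors' deposited table. In nup1-1 it stood at 28.9 and 27.5 FPKM, a log2 fold change of -0.07 ± 0.15 that was not called. Among all 38 members it was the one whose ABA response was called higher in nup1-1 than in Col-0. HEMA2, the form of non-green tissue, went from 12.3 to 10.9 FPKM in Col-0 and from 16.9 to 12.3 FPKM in nup1-1, where it fell by 0.45 ± 0.16 and was called. HEMA1 and HEMA2 are 83.1% identical over their aligned coding bases and share no run of 50 bases. HEMA1 made up 86% of the summed FPKM of the pair in untreated Col-0 and 77.2% on ABA. In nup1-1 it made up 63.1% untreated and 69% on ABA, and these shares are values without a test. The next enzyme, GSA aminotransferase, turns the reductase product into ALA. GSA1 went from 168 to 157 FPKM in Col-0 and from 149 to 161 FPKM in nup1-1. GSA2 went from 284 to 222 FPKM in Col-0 and from 213 to 193 FPKM in nup1-1, and neither form was called for ABA in either genotype. FLU, which represses ALA synthesis in the dark, stood at 171 and 154 FPKM in Col-0 and at 157 and 162 FPKM in nup1-1.

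**Figure D2:**
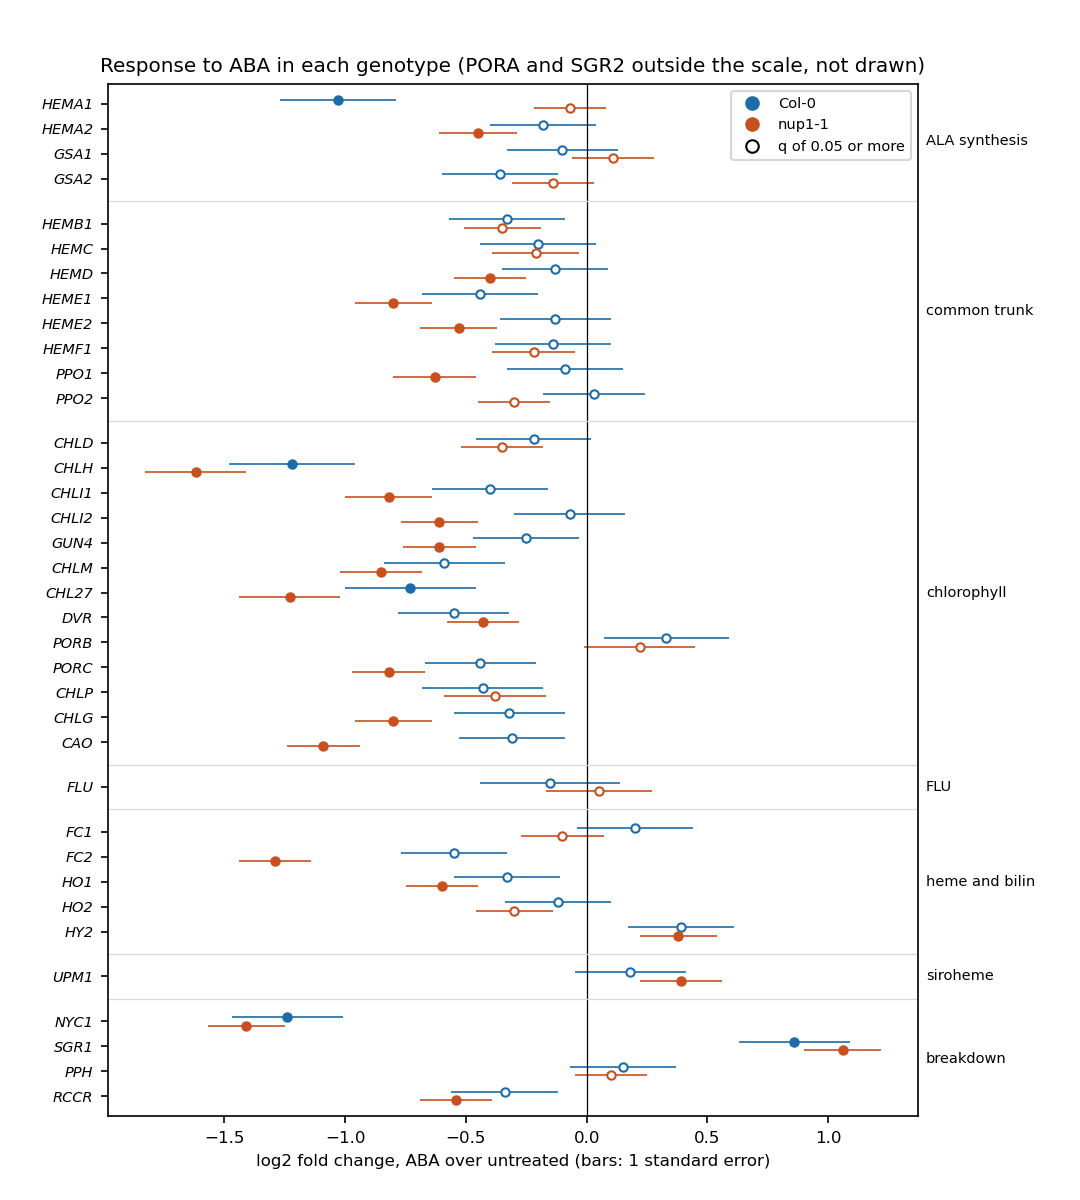
Log2 fold change on ABA of 36 members in Col-0 (blue) and nup1-1 (orange), with bars of 1 standard error; filled points passed q under 0.05, and PORA and SGR2 lie outside the scale and are not drawn. HEMA1 lies at -1.03 in Col-0 and at -0.07 in nup1-1, while CAO and FC2 lie further to the left in nup1-1 than in Col-0.

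The trunk from ALA to protoporphyrin IX showed no calls in Col-0 for its 8 tested members, and none of them had an unadjusted p under 0.05 in the authors' deposited table. In nup1-1, 4 of the 8 fell (50%) and the median log2 fold change of the 8 was -0.37. Over all genes tested, 25.3% fell in nup1-1 and 7.79% fell in Col-0. HEME1, a uroporphyrinogen decarboxylase, went from 163 to 93.6 FPKM in nup1-1. It fell by 0.80 ± 0.16, against -0.44 ± 0.24 in Col-0, where it went from 213 to 157 FPKM. The other decarboxylase, HEME2, fell from 171 to 118 FPKM in nup1-1. PPO1, the protoporphyrinogen oxidase of the plastid, went from 143 to 92.5 FPKM in nup1-1 and fell by 0.63 ± 0.17. HEMD, uroporphyrinogen synthase, went from 30.5 to 23.1 FPKM. In Col-0 these 3 were not called, with HEME2 at 191 and 175 FPKM, PPO1 at 118 and 111 FPKM and HEMD at 36.2 and 33.1 FPKM. HEMB1, HEMC, HEMF1 and PPO2 were not called for ABA in either genotype. HEMB1, ALA dehydratase, stood at 180.3 and 143 FPKM in Col-0 and at 156 and 123 FPKM in nup1-1. HEMC, which joins the pyrroles, stood at 348 and 303 FPKM in Col-0 and at 304 and 263 FPKM in nup1-1. HEMF1, coproporphyrinogen oxidase, stood at 275 and 249 FPKM in Col-0 and at 228 and 196 FPKM in nup1-1. Among the tested members of the trunk, PPO2 was the one with the highest log2 fold change in Col-0, 0.03 ± 0.21, at 26.9 and 27.3 FPKM. The second ALA dehydratase gene, HEMB2, was at or near 0 in every group and was not tested.

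For magnesium chelatase and the steps to chlorophyll, 10 of 14 members fell (71.4%) and 1 rose (7.14%) on ABA in nup1-1, against 25.3% and 21.2% over all genes tested, and their median log2 change was -0.71. In Col-0, 2 fell (14.3%) and 1 rose, against 7.79% and 7.83% over all genes, and the median was -0.36. CHLH (AT5G13630, chromosome 5, 4387334 to 4392227) is the large subunit that binds protoporphyrin. It stood at 423 FPKM in untreated Col-0 and 182 FPKM on ABA, a 2.33-fold fall. In nup1-1 it stood at 217 and 70.6 FPKM, a 3.08-fold fall, with q = 0.000208 in the authors' deposited table. The other chelatase subunits moved less. CHLI1, an ATPase subunit, went from 443 to 336 FPKM in Col-0 and from 349 to 198 FPKM in nup1-1. Its paralogue CHLI2 stood at 68.7 and 65.7 FPKM in Col-0 and at 68.8 and 45 FPKM in nup1-1, and both fell in nup1-1. CHLI1 held between 81.5% and 86.6% of the summed level of the pair in every group. CHLD, the remaining subunit, stood at 119 and 103 FPKM in Col-0 and at 117 and 91.5 FPKM in nup1-1, with no call. GUN4, which activates the chelatase, went from 182 to 153 FPKM in Col-0 and from 108 to 70.5 FPKM in nup1-1, where it fell by 0.61 ± 0.15.

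Beyond the chelatase, CHLM methylates the magnesium porphyrin and CHL27 belongs to the cyclase that closes the fifth ring. CHL27 had the highest level of the members in untreated Col-0, at 1368 FPKM, and stood at 824 FPKM on ABA, a fall of 0.73 ± 0.27 that was called with q = 0.0424 in the authors' deposited table. In nup1-1 it went from 830.3 to 354 FPKM, below PORB and CHLP on ABA. CHLM went from 519 to 345 FPKM in Col-0, which was not called, and from 391 to 217 FPKM in nup1-1, which was. DVR, the divinyl reductase, stood at 158 and 108 FPKM in Col-0 without a call, and at 103 and 76.8 FPKM in nup1-1, where it fell by 0.43 ± 0.15. CHLG, chlorophyll synthase, went from 141 to 113 FPKM in Col-0 and from 123 to 70.7 FPKM in nup1-1, where the fall of 0.80 ± 0.16 was called. CHLP, which reduces the geranylgeranyl tail, stood at 860 and 639 FPKM in Col-0 and at 676 and 518 FPKM in nup1-1, with no call for ABA.

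Protochlorophyllide oxidoreductase carries out the light-dependent step, in 3 forms that moved in different ways. PORA, the form known from dark-grown seedlings, was near 0 without ABA. It went from 0.12 to 16.7 FPKM in Col-0, a log2 rise of 7.12 ± 0.62, and from 0.51 to 55 FPKM in nup1-1, a rise of 6.75 ± 0.35. Both were called in the authors' deposited tables, and the folds of 139 and 108 start from levels near 0. PORB, expressed in both dark and light, was the most abundant form, at 653 and 819 FPKM in Col-0 and at 760.2 and 886 FPKM in nup1-1, and was called in neither. PORC, the form of light-grown plants, went from 187 to 138 FPKM in Col-0 and from 146 to 82.7 FPKM in nup1-1, where it fell by 0.82 ± 0.15. PORA made up 1.99% of the sum of PORA and PORB in Col-0 on ABA and 5.84% in nup1-1 on ABA. The coding bases of PORA and PORB are 83.3% identical, with no shared run of 50 bases.

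CAO makes chlorophyll b from chlorophyll a. It stood at 70.9 FPKM in untreated Col-0 and 57.2 FPKM on ABA, a log2 fold change of -0.31 ± 0.22. In nup1-1 it stood at 56.9 and 26.8 FPKM and fell by 1.09 ± 0.15, with q = 0.000208 in the authors' deposited table. Its fall in nup1-1 was thus 2.12-fold.

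In the heme and bilin branch, ferrochelatase inserts iron, and FC2 is the form of photosynthetic tissue. FC2 (AT2G30390, chromosome 2, 12951027 to 12954114) went from 91.9 to 62.6 FPKM in Col-0, a log2 fold change of -0.55 ± 0.22 that was not called. In nup1-1 it went from 83.5 to 34.1 FPKM and fell by 1.29 ± 0.15. FC1, the more widely expressed form, stood at 22.6 and 25.9 FPKM in Col-0 and at 34.8 and 32.4 FPKM in nup1-1. FC2 made up 80.3% of the summed level of the pair in untreated Col-0 and 70.8% on ABA. In nup1-1 it made up 70.6% untreated and 51.3% on ABA. Coding identity of FC1 and FC2 is 66.1%. Heme oxygenase HO1 opens the heme ring, and it went from 135 to 108 FPKM in Col-0 without a call and from 122 to 80.8 FPKM in nup1-1, a fall of 0.60 ± 0.15. HO2 stood at 28.9 and 26.7 FPKM in Col-0 and at 27.3 and 22.1 FPKM in nup1-1, and was called in neither. HO3 and HO4 were at or near 0 in every group and were not tested. HY2, which completes the phytochrome chromophore, rose from 14.7 to 19.2 FPKM in nup1-1, by 0.38 ± 0.16, and stood at 13.9 and 18.1 FPKM in Col-0 without a call. UPM1, which starts the siroheme branch, rose from 132 to 173 FPKM in nup1-1 and was not called in Col-0.

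**Figure D3:**
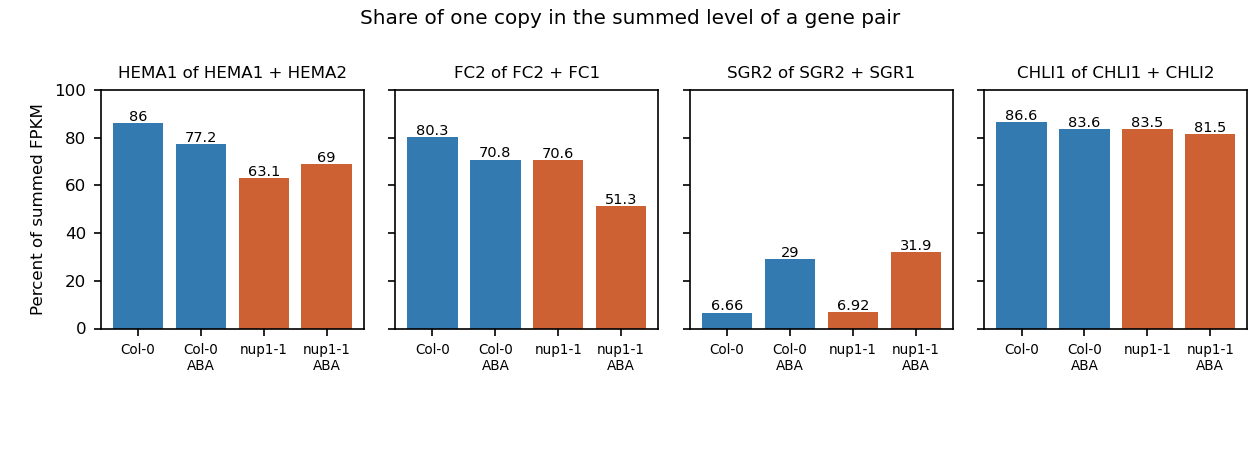
Percent of the summed FPKM of a gene pair held by the first-named copy in each of the 4 groups, 1 deposited value per group and no error bar. HEMA1 held 86% of its pair in untreated Col-0 and 63.1% in untreated nup1-1, FC2 held 70.6% of its pair in untreated nup1-1 and 51.3% on ABA, and SGR2 held 29% and 31.9% of its pair on ABA in Col-0 and nup1-1.

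The breakdown genes moved in both directions. SGR1 and SGR2 encode the enzyme that removes magnesium from chlorophyll a. SGR2 (AT4G11910, chromosome 4, 7156252 to 7158042) rose from 0.607 to 6.29 FPKM in Col-0, by 3.38 ± 0.37, and from 0.799 to 10.4 FPKM in nup1-1, by 3.71 ± 0.33. SGR1 rose from 8.5 to 15.4 FPKM in Col-0 and from 10.7 to 22.3 FPKM in nup1-1. SGR2 made up 6.66% of the summed level of the pair in untreated Col-0 and 29% on ABA, and the coding bases of the pair are 80.1% identical. NYC1, the chlorophyll b reductase, moved the other way. It went from 104 to 44.2 FPKM in Col-0, a fall of 1.24 ± 0.23, and from 88.5 to 33.3 FPKM in nup1-1, a fall of 1.41 ± 0.16. PPH, which removes the phytol tail, stood at 18.7 and 20.9 FPKM in Col-0 and at 26 and 27.8 FPKM in nup1-1, and was called in neither. RCCR, which reduces the opened ring, went from 64.6 to 51 FPKM in Col-0 without a call and from 52.5 to 36 FPKM in nup1-1, where it fell by 0.54 ± 0.15. The joined row with NOL stood at 27.7 and 27.9 FPKM in Col-0 and at 27.2 and 26.1 FPKM in nup1-1, and was called in neither. The joined row with PAO stood at 24 and 23.7 FPKM in Col-0 without a call. In nup1-1 the PAO row went from 26.6 to 18.8 FPKM, a fall of 0.50 ± 0.15 that passed the threshold. Between the genotypes on ABA it stood at 27.3 and 18.7 FPKM and was lower in nup1-1 by 0.54 ± 0.15, again past the threshold. Neither row can be given to 1 gene, so neither is in the counts of members.

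The ABA responses of both genotypes were set against each other gene by gene in a 2-sided Wald test on the rebuilt errors, with Benjamini-Hochberg adjustment over 19487 genes. Of 38 members 1 was higher (2.63%) and 2 were lower (5.26%) in nup1-1, against 4.65% higher and 11.6% lower over all genes tested. Both shares of the members lay below the background. The ABA response of HEMA1 was 0.96 ± 0.28 higher in nup1-1 on the log2 scale, with a 95% interval of 0.42 to 1.51 and an adjusted p of 0.00595 by the Wald test. That of CAO was -0.78 ± 0.27, from -1.30 to -0.25, with an adjusted p of 0.0276 by the same Wald test. That of FC2 was -0.74 ± 0.27, from -1.27 to -0.21, with an adjusted p of 0.0416 by that Wald test. For HEMA1 the fall on ABA was seen in Col-0 and was not called in nup1-1, and for CAO and FC2 the fall was called in nup1-1 alone. The tables share no library. For the other 35 tested members the interval held 0. For CHLH the difference was -0.40, with an interval of -1.05 to 0.25, and for PORA it was -0.37, from -1.76 to 1.03. CAO and FC2 lost their calls where the error was taken from the deposited p, with adjusted p of 0.166 and 0.255 in the Wald test, and HEMA1 kept its call. The test is approximate, because its errors are rebuilt from the tables.

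**Figure D4:**
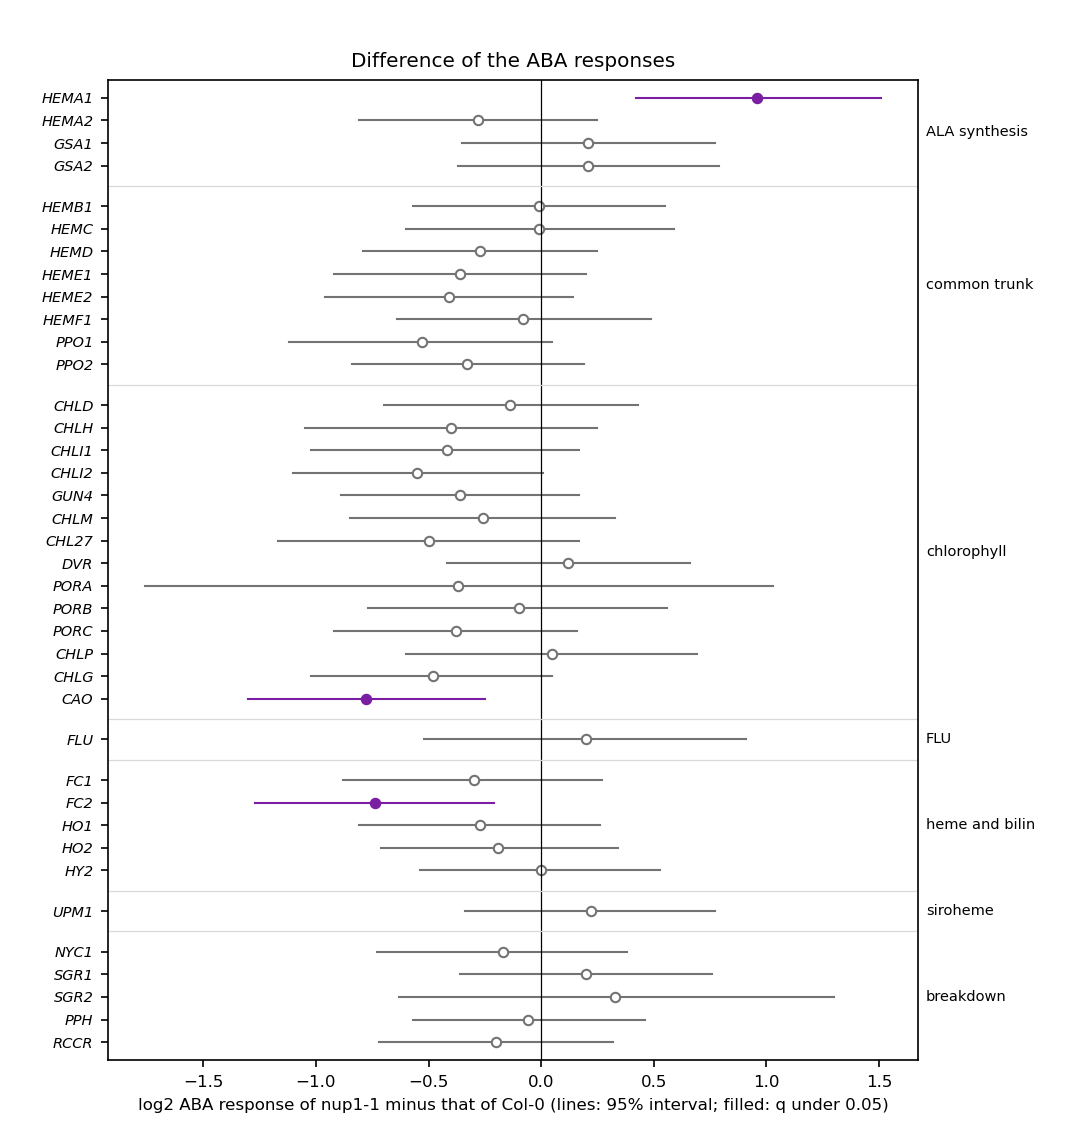
Difference of the log2 ABA response, nup1-1 minus Col-0, for 38 members with lines for the 95% interval; filled purple points passed the adjusted threshold. HEMA1 lies to the right of 0 at 0.96, CAO and FC2 lie to the left at -0.78 and -0.74, and all other intervals cross 0.

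Without ABA the mutant carried less transcript of several members. Of 37 tested, 4 were lower and none was higher at q under 0.05 in the authors' deposited table; at an unadjusted p under 0.05, 13 were lower and none was higher. Over all 20004 genes tested, 6.6% were called at q under 0.05, 3.92% lower and 2.68% higher. At an unadjusted p under 0.05 in that deposited table, 2206 of the 20004 genes were lower and 1427 were higher. The 4 were HEMA1, CHLH, GUN4 and DVR, that is, a gene of the ALA entry step, the large chelatase subunit, the chelatase activator and the divinyl reductase. HEMA2 and the other chelatase subunits, CHLI1, CHLI2 and CHLD, were not called. HEMA1 stood at 75.7 FPKM in the wild type against 25.1 FPKM, a 3.01-fold difference with a log2 value of -1.59 ± 0.23. CHLH stood at 424 and 189 FPKM, a log2 value of -1.16 ± 0.31. GUN4 stood at 182 and 93.6 FPKM, and DVR at 159 and 90 FPKM. The median log2 difference was -0.40 over the tested members, -0.02 over all genes tested and -0.55 over the chlorophyll branch. PORA was not tested in this table, where it stood at 0.12 and 0.444 FPKM. CHL27, at 1372 and 723 FPKM, fell short of the threshold with q = 0.052 in the authors' deposited table.

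On ABA most of the set passed the threshold between the genotypes. Of 38 tested, 26 were lower and 2 were higher in nup1-1 in the authors' deposited table. The members' standard errors were 0.14 to 0.2 here and 0.22 to 0.47 without ABA. A difference of a given size thus passed more readily on ABA, and the numbers called in the 2 media are not directly comparable. Over all 20327 genes 23.3% were lower and 15.4% higher, and the median was -0.54 over the members and -0.01 over all genes. The 2 higher were PORA and SGR2, and the 4 members called without ABA were among the 26. In the chlorophyll branch 12 of 14 were lower, with a median of -0.89, and in the trunk 7 of 8, with a median of -0.52. Each pair of values below gives Col-0 first. Of the 26, 7 had a q above 0.000272, the smallest q in the authors' deposited table: GSA2 (0.0219), HEMB1 (0.0118), HEMC (0.0282), PPO1 (0.00704), CHLD (0.0395), CHLP (0.0123) and HO2 (0.00472).

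At the entry to the pathway HEMA1 stood at 42.2 and 27.3 FPKM on ABA, a log2 difference of -0.63 ± 0.15, against -1.59 without ABA, where it was the largest difference among the tested members. GSA2 stood at 256 and 192 FPKM, a difference of -0.42 ± 0.16. In the trunk the largest difference was that of HEME1, at 181 and 92.9 FPKM, -0.96 ± 0.15. HEME2 stood at 202 and 117 FPKM (-0.78 ± 0.15) and HEMD at 38.1 and 22.9 FPKM (-0.73 ± 0.15). HEMF1 stood at 287 and 195 FPKM, PPO1 at 128 and 91.9 FPKM, HEMB1 at 165 and 122 FPKM and HEMC at 349 and 261 FPKM, with log2 differences from -0.56 to -0.42. The trunk thus differed by less than 2-fold throughout.

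Among the tested members, the chlorophyll branch held the largest differences on ABA. CHLH stood at 209 and 70.1 FPKM, a 2.98-fold difference, and CHL27 at 949.6 and 351 FPKM, a 2.7-fold difference. GUN4 stood at 176 and 70 FPKM (-1.33 ± 0.15) and CAO at 65.9 and 26.6 FPKM (-1.31 ± 0.15). These 4 lie at the chelatase, the cyclase and the step to chlorophyll b. CHLI1 stood at 387 and 196 FPKM, CHLI2 at 75.6 and 44.6 FPKM and CHLD at 118 and 90.8 FPKM. PORC stood at 159 and 82.2 FPKM, CHLG at 131 and 70.2 FPKM and CHLM at 398 and 215 FPKM. DVR stood at 125 and 76.3 FPKM and CHLP at 736 and 514 FPKM. These 8 had log2 differences between -0.98 for CHLI1 and -0.38 for CHLD.

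In the heme branch FC2 stood at 72.1 and 33.9 FPKM, a difference of -1.09 ± 0.15, while FC1 stood at 29.8 and 32.2 FPKM and was not called. HO1 stood at 124 and 80.2 FPKM (-0.63 ± 0.15) and HO2 at 30.7 and 22 FPKM (-0.48 ± 0.15). Among the breakdown genes NYC1 stood at 50.7 and 33.1 FPKM (-0.62 ± 0.15) and RCCR at 58.6 and 35.7 FPKM (-0.71 ± 0.15). PORA stood at 19.2 and 54.6 FPKM, a log2 difference of 1.51 ± 0.15, and SGR2 at 7.22 and 10.4 FPKM, a difference of 0.52 ± 0.19. SGR1 stood at 17.7 and 22.2 FPKM and was not called. PORB, GSA1, HEMA2, PPO2, FC1, FLU, HY2, UPM1 and PPH were not called either, with log2 differences between -0.32 and 0.20. Each genotype comparison shares its libraries with both ABA comparisons, so their counts are not separate evidence.

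**Figure D5:**
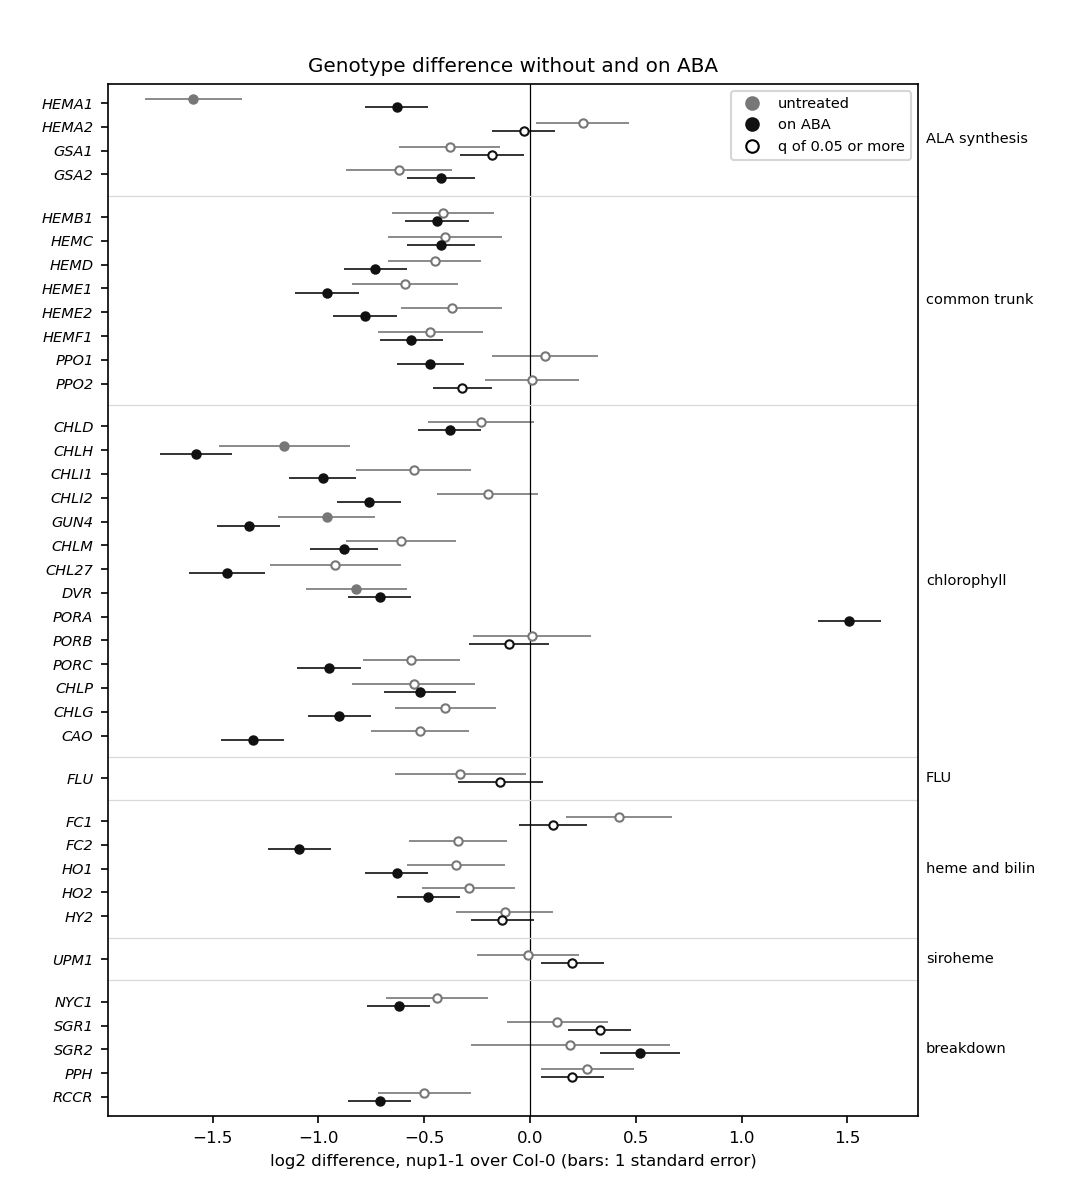
Log2 difference of nup1-1 over Col-0 without ABA (grey) and on ABA (black) for the tested members, with bars of 1 standard error; filled points passed q under 0.05. CHLH lies at -1.16 and -1.58, HEMA1 at -1.59 and -0.63, and PORA, drawn on ABA only, at 1.51.

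A list of 18 other genes of tetrapyrrole metabolism was read for comparison, of which 16 had a row of their own. On ABA 2 of them fell in Col-0 (12.5%, against 7.79% over all genes tested). In nup1-1, 7 fell (43.8%, against 25.3%) and 1 rose (6.25%, against 21.2%). VTE5, a phytol kinase, went from 28.9 to 6.79 FPKM in nup1-1, a fall of 2.09 ± 0.19, and CLH1, a chlorophyllase, from 56 to 15.9 FPKM, a fall of 1.81 ± 0.16. HEMA3, a further reductase gene at low level, rose from 0.549 to 1.06 FPKM in nup1-1. In Col-0 the calls were CLH2, from 5.22 to 2.54 FPKM, and LIL3:1, from 336 to 212 FPKM. VTE5 and CLH1 were also the list's calls in the difference of the ABA responses, at -1.98 ± 0.29 and -1.34 ± 0.27 by the Wald test. For genotype, 3 were lower without ABA (18.8%, against 3.92% over all genes tested). On ABA 10 were lower (62.5%, against 23.3%) and 1 was higher (6.25%, against 15.4%). MES16, a methylesterase of chlorophyll breakdown products, stood at 15.1 and 5.58 FPKM without ABA. SGRL, a relative of SGR1, stood at 153 and 58.9 FPKM without ABA and at 126 and 38.7 FPKM on ABA. VTE5 stood at 26.1 and 6.75 FPKM on ABA, MES16 at 17.7 and 5.93 FPKM on ABA, and LCAA, a cyclase component, at 437 and 254 FPKM without ABA.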

How the data were processed

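RNA-seq of seedlings was deposited as 4 gene-level comparison tables, each with 1 value per group. Of tools, FastQC, Trimmomatic and TopHat appear in the submitters' processing notes, with TAIR10 as the build; the sources used here give no versions and do not name the program behind the tables. The unit of the group values deposited by the authors was taken to be FPKM, an inference from the values: gene models with longer spans had lower smallest values. The deposited test statistic is a score. The deposited p-values were never below 5e-05, and the deposited q-values equal a Benjamini-Hochberg adjustment of them over tested genes. Total counts per library were not used, so the depth is unknown, no value has an SD, and no interval for counting error is given.

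Log2 fold changes were recomputed from the FPKM. A factor for each table (1.736 to 1.742), chosen so that the scaled statistic gives the deposited p under a normal distribution, turned the deposited statistic into a deviate, and the fold change divided by that deviate is the standard error. The difference of ABA responses was tested by a 2-sided Wald test with Benjamini-Hochberg adjustment. It covered 19487 genes with at least 1 FPKM in the highest group. The calculation was run on simulated data whose noise was drawn from the same rebuilt errors. That run could not show whether the rebuilt errors are right. Each table was normalized separately. Upstream windows and coding bases came from TAIR10.1 RefSeq. Of the rows matched to a RefSeq locus, all 32208 were on the same chromosome and 32207 overlapped it. Only 49.9% of them had a start or end identical to that of RefSeq. Identity was computed on coding bases in place of proteins. The members and lists were chosen with earlier results of these data known. Named genes are all members that were called in a genotype comparison or in the difference of responses, the extremes of each branch, the gene pairs, and up to 3 called genes of the other list per comparison. Alternatives were thresholds, filters, pseudocounts, centring and the source of the error. Python 3.11.15, pandas 2.3.3, scipy 1.17.1, Biopython 1.88 and matplotlib 3.10.9 were used.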

Additional observations from a re-analysis of the deposited data

Results flagged for a closer look

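For 3 members the ABA response differed between the genotypes in the approximate Wald test. These were 7.89% of the 38 members tested, against 16.3% over all genes tested, so the members' share lay below the background. The log2 ABA response of nup1-1 minus that of Col-0 was 0.96 for HEMA1, which fell in Col-0 and was not called in nup1-1. It was -0.78 for CAO and -0.74 for FC2, which were called lower on ABA in nup1-1 and not in Col-0.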

How the results depend on the processing

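Leaving out replicates could not be run, because the deposited tables hold 1 value per group. No paired analysis was possible because no value per library was used. Of 962 values for genes and branches under the alternatives, 903 were counted as unchanged, 59 kept direction but lost the call, and no called value reversed. The 903 overstate what was retested. Of them, 179 came from log2(FPKM + 1), which kept the original calls, so no call could be lost there. Branch medians have no threshold and counted as unchanged where they moved by less than the branch's median standard error. On centring, 2 uncalled values near 0 changed sign. Both are UPM1 in the untreated genotype comparison, counted as a gene and again as the median of its branch of 1 gene. Most lost calls came from also asking for an absolute log2 fold change of at least 1, which removes changes under 2-fold by construction. With that minimum, nup1-1 on ABA had 3 members higher and 5 lower, the untreated genotype comparison had 2 lower, and the genotype comparison on ABA had 1 higher and 5 lower. At a q threshold of 0.01, ABA in nup1-1 had 3 higher and genotype on ABA had 1 higher. For the difference of responses, 0 members were lower at a threshold of 0.01 and 0 with the error taken from the deposited p, whose floor enlarges it; HEMA1 kept its call there, with adjusted p from 0.00595 to 0.0266 over the alternatives, while CAO ranged from 0.0208 to 0.166 and FC2 from 0.0322 to 0.255. In the first 100 bases the CCA1 site was in 11.6% of members (6.28% of all genes), the G-box in 16.3% (3.61%), the ABRE in 16.3% (4.71%) and CCAATC in 6.98% (4.32%), so for CCAATC the members' share lay above that of all genes there and below it over 250 bases.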
